A study of Mus musculus with 11 samples.

Results

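Granzymes A, B, K and M and perforin are proteins of the cytotoxic granule, and cathepsin W is a protease of cytotoxic lymphocytes. Their genes *Gzma*, *Gzmb*, *Gzmk*, *Gzmm*, *Prf1* and *Ctsw*, called granule genes for short, are described here in MC38 tumors. The 6 genes were taken by name from the 758 genes with values, and the filter of low expressed genes, which removed 22 of 780 panel genes, removed 0 of the 6. MC38 is a mouse colon carcinoma line, and C57BL/6 mice aged 6 to 8 weeks received 100000 to 200000 cells of it under the skin of the flank. From 5 days later, mice were given intraperitoneal hetIL-15 or PBS, and tumors were taken 3 h after the fourth injection. hetIL-15 is the heterodimer of IL-15 and the alpha chain of its receptor, purified here from HEK293 cells and injected at 3 µg, 3 times per week. There were 6 hetIL-15 tumors and 5 PBS tumors, all grown from the same tumor line, and no other treatment or allele is named for either group. RNA of the whole tumor was hybridized to color-coded nCounter probes of the PanCancer Immune Profiling Panel, and the probe of each mRNA was counted without amplification. The epithelial genes *Epcam* and *Cdh1* were both in the lowest 25% of genes by mean value in these tumors, between 4.17 and 6.15 with hetIL-15 and 4.58 and 5.27 with PBS for *Epcam* and between 3.75 and 6.58 with hetIL-15 and 4.17 and 5.46 with PBS for *Cdh1*, on the log2 scale.

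Cytotoxic T cells and NK cells store granzymes and perforin in secretory granules and release them onto a target cell at the immune synapse. Perforin forms pores, and through them the granzymes, a family of serine proteases, reach the cytosol of the target and cleave proteins there. Granzyme B cuts after aspartate and activates caspases, granzymes A and K cut after basic residues, and granzyme M cuts after methionine or leucine. Cathepsin W is a cysteine protease of the papain family found mainly in cytotoxic lymphocytes. IL-15 signals through the receptor chains it shares with IL-2 and is known to raise granzyme and perforin expression in NK cells and CD8+ T cells. In mouse the genes lie at separate loci except for *Gzma* and *Gzmk*, which are neighbors on chromosome 13. *Gzmb* lies on chromosome 14 beside *Gzmc*, *Gzmm* and *Prf1* lie apart on chromosome 10, and *Ctsw* lies on chromosome 19 (RefSeq, GRCm38.p6).

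The promoters of *Gzma*, *Gzmb* and *Prf1*, the 3 granule genes with the largest fold changes, are shown because each of them rose with hetIL-15, with the core motif of RUNX factors, which take part in the control of cytotoxic genes. Sequences of 5 of the 6 genes, with 2 start sites for *Gzmm*, were taken from RefSeq (GRCm38.p6) as the 250 bases before the transcription start, read 5′ to 3′ on the strand of the gene, and *Ctsw* was not analysed here. The letters searched were TGTGGT on both strands, so that ACCACA marks a match on the other strand, and capitals mark each match. *Gzma* (chr13:113100982-113101231, minus strand) holds 1 match, *Gzmb* (chr14:56262335-56262584, minus strand) holds 2 and *Prf1* (chr10:61297586-61297835, plus strand) holds 1.
Gzma: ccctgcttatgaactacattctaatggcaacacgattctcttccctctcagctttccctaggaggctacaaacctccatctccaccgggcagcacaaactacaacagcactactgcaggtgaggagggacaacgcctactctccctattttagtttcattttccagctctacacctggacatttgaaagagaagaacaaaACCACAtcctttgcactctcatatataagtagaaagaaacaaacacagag
Gzmb: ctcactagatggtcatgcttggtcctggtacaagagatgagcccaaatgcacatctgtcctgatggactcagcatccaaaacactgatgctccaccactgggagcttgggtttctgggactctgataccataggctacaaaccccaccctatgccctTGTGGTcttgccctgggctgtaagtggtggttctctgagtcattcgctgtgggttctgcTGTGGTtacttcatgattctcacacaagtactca
Prf1: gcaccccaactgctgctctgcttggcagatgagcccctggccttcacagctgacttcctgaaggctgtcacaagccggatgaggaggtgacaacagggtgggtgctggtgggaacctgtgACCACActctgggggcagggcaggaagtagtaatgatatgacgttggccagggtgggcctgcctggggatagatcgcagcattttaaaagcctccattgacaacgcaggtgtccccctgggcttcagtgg
The matches begin 50 bases before the start in *Gzma*, 93 and 34 bases before it in *Gzmb*, 130 bases before it in *Prf1* and 247 bases before it in *Gzmm*, and *Gzmk* has 0. Of 32851 promoter windows of the same length, 14.0% hold these letters, against those of 4 of the 5 genes. The share counts windows, whereas *Gzmm* is counted as a gene and holds the letters at only 1 of its 2 start sites. The letters TTCNNNGAA, a STAT motif, were in 7.02% of windows and in *Gzmm* alone of the 5 genes, TGACGT, a CRE motif, in 6.47% and in *Prf1* alone, GGTGTGA, a T-box motif, in 3.33% and in *Gzmk* and *Gzmm*, and GGAAGT, an ETS motif, in 19.7% and in *Gzmk* and *Prf1*, on either strand and with no overlap between motifs in these genes. A match describes the letters only.

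Values are log2 values that the authors normalized so that all tumors share a distribution, and off the log2 scale each tumor sums to between 999186 and 999245. Probes differ in efficiency, so a gene is compared between tumors and not with the level of another gene. Genes of the same tumor often share a value (69.9% of all values), and the scale is coarse at its lower end. A mean log2 value under 5.18, that of the lowest 25% of genes, is called low signal. On the first principal component of all genes, PBS replicates 4 and 5 were lowest, at −8.48 and −12.31. The other PBS tumors lay between −4.06 and 0.54, and the hetIL-15 tumors between 0.69 and 9.42. The component thus orders the groups, and this pair holds the PBS tumors farthest from the treated ones. Results are also given without this pair. The mean log2 value of the 20 housekeeping genes was 11.01 in hetIL-15 replicate 5 and 10.75 to 10.81 in the other hetIL-15 tumors, against 11.04 and 11.01 in PBS replicates 4 and 5 and 10.73 to 10.92 in the other PBS tumors.

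hetIL-15 tumors had more *Gzma*, *Gzmb*, *Prf1* and *Ctsw* RNA than PBS tumors, by 5.52-fold, 4.47-fold, 3.42-fold and 2.22-fold. The other 2 granzymes, *Gzmm* and *Gzmk*, had higher means by 1.67-fold and 1.5-fold and did not pass the test. The test was limma on all 758 genes with the Benjamini-Hochberg adjustment at 0.05, by which 1.72% of all genes were higher with hetIL-15, against 4 of the 6 genes here (2.11% of all genes passed in either direction). With an unadjusted p under 0.05, 5 of 6 were higher, all but *Gzmk*, against 7.39% of all genes. By the Bonferroni adjustment that the methods name, *Gzmb* (adjusted p = 0.00375) and *Gzma* (adjusted p = 0.0162) passed, 2 of 6 against 0.528% of all genes. *Prf1* and *Ctsw* did not pass by it here (limma with Bonferroni, adjusted p = 0.489 and 0.222). The study also asked for a 2-fold change, and it reports *Prf1* and *Ctsw* as significantly overexpressed too. Every hetIL-15 tumor lay above every PBS tumor for the same 4 genes, a pattern of 1.85% of all genes (2.51% in either direction). All 6 genes had a higher mean with hetIL-15, as did 43.5% of all genes, and their median log2 fold change was 1.46 against −0.03 over all genes. A whole tumor with fewer cells of a type and one with less RNA per cell cannot be told apart in these data.

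**Figure D1:**
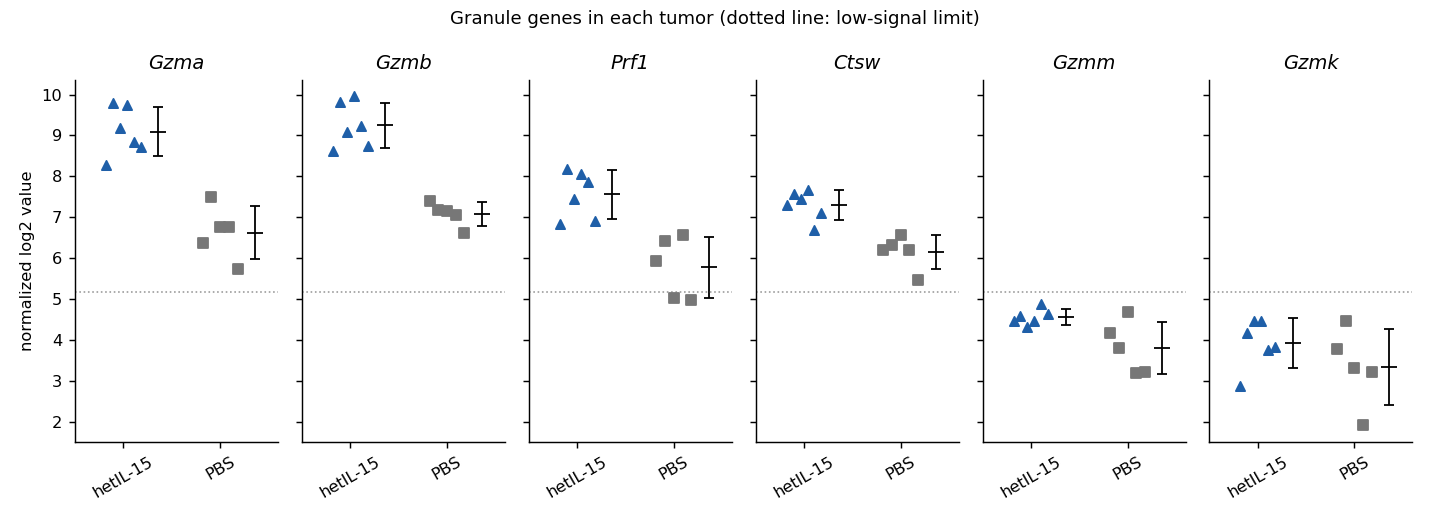
Normalized log2 values (y axis) of the 6 granule genes in 6 hetIL-15 tumors (triangles) and 5 PBS tumors (squares), with the mean and SD of each group in black and the low-signal limit of 5.18 as a dotted line. The groups do not overlap for *Gzma*, *Gzmb*, *Prf1* and *Ctsw*, whereas for *Gzmm* and *Gzmk* they overlap below the dotted line.

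*Gzmb* encodes granzyme B, the granzyme most used as a marker of killing capacity. Its log2 value ran from 8.63 over a median of 9.16 to 9.96 in hetIL-15 tumors, against 7.41, 7.19, 7.15, 7.05 and 6.61 in PBS replicates 1 to 5. The PBS tumors were close together and all lay below the lowest hetIL-15 tumor, replicate 1. The means were 9.25 ± 0.55 with hetIL-15 (SD, n = 6) and 7.08 ± 0.30 with PBS (SD, n = 5). This gave a log2 fold change of 2.16 (SE 0.26, 95% interval 1.59 to 2.73, adjusted p = 0.00188 by limma), second of all genes by p. Leaving out each tumor in turn gave values between 2.02 and 2.28, which passed in all 11 repeats, and without PBS replicates 4 and 5 together it was 1.99 (adjusted p = 0.0465 by limma).

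*Gzma* encodes granzyme A, a tryptase and the most abundant granzyme of many resting NK cells. Its log2 value ran from 8.29 over a median of 9.01 to 9.79 in hetIL-15 tumors, against 6.37, 7.49, 6.77, 6.76 and 5.75 in PBS replicates 1 to 5. PBS tumors were spread more widely than for *Gzmb*, with replicate 2 highest and replicate 5 lowest, and still did not reach the hetIL-15 tumors. The means were 9.09 ± 0.60 with hetIL-15 (SD, n = 6) and 6.63 ± 0.64 with PBS (SD, n = 5), a log2 fold change of 2.47 (SE 0.35, 95% interval 1.70 to 3.23, adjusted p = 0.00404 by limma). It passed in all 11 repeats with 1 tumor left out, between 2.25 and 2.68. Without PBS replicates 4 and 5 together the log2 fold change was 2.21 (adjusted p = 0.0495 by limma).

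*Prf1* encodes perforin, without which granzymes stay outside the cytosol of the target. Its log2 value ran from 6.84 over a median of 7.67 to 8.19 in hetIL-15 tumors, against 5.93, 6.43, 5.02, 6.56 and 4.98 in PBS replicates 1 to 5. The gap between the groups was narrow, with hetIL-15 replicates 1 and 6 just above PBS replicates 4 and 2, and PBS replicates 3 and 5 far below. The means were 7.56 ± 0.59 with hetIL-15 (SD, n = 6) and 5.78 ± 0.75 with PBS (SD, n = 5), a log2 fold change of 1.77 (SE 0.37, 95% interval 0.95 to 2.60, adjusted p = 0.0349 by limma). The call held in 4 of 11 repeats with 1 tumor left out, those without hetIL-15 replicate 1 or 6 and without PBS replicate 2 or 4. In the other 7 repeats the adjusted p was at most 0.0915, and the log2 fold change lay between 1.57 and 1.97 over all 11. Without PBS replicates 4 and 5 together it was 1.76 (adjusted p = 0.114 by limma), and with the replicate number of the labels as a block it was 1.90 (adjusted p = 0.0674 by limma).

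*Ctsw* had the smallest change of the 4 genes that passed. Its log2 value ran from 6.70 over a median of 7.38 to 7.67 in hetIL-15 tumors, against 6.20, 6.32, 6.56, 6.20 and 5.46 in PBS replicates 1 to 5. hetIL-15 replicate 5 was the lowest treated tumor and lay just above PBS replicate 3, the highest control. The means were 7.30 ± 0.36 with hetIL-15 (SD, n = 6) and 6.15 ± 0.41 with PBS (SD, n = 5), a log2 fold change of 1.15 (SE 0.22, 95% interval 0.67 to 1.64, adjusted p = 0.0227 by limma). The call held in 6 of 11 repeats and was lost without hetIL-15 replicate 2, 3 or 4 and without PBS replicate 1 or 4, with an adjusted p of at most 0.0577. Without PBS replicates 4 and 5 together it was 0.94 (adjusted p = 0.114 by limma).

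*Gzmm* and *Gzmk* were both of low signal. *Gzmm*, a granzyme known mainly from NK cells and other innate-like lymphocytes, ran from 4.32 over a median of 4.52 to 4.88 in hetIL-15 tumors, against 4.17, 3.8, 4.68, 3.19 and 3.23 in PBS replicates 1 to 5. The hetIL-15 tumors lay within a narrow band, and PBS replicate 3 lay inside it. The means were 4.56 ± 0.19 with hetIL-15 (SD, n = 6) and 3.81 ± 0.63 with PBS (SD, n = 5), a log2 fold change of 0.74 (SE 0.25, 95% interval 0.18 to 1.31, adjusted p = 0.284 by limma). Without PBS replicate 3 it was 0.96 (adjusted p = 0.0512 by limma), and without PBS replicates 4 and 5 together 0.34 (adjusted p = 0.718 by limma). *Gzmk*, a granzyme known from memory T cells, ran from 2.88 over a median of 4.00 to 4.47 in hetIL-15 tumors, against 3.79, 4.46, 3.31, 1.92 and 3.23 in PBS replicates 1 to 5. The groups overlapped almost entirely, and PBS replicate 4 held the lowest value that any gene had in that tumor. The means were 3.93 ± 0.60 with hetIL-15 (SD, n = 6) and 3.34 ± 0.93 with PBS (SD, n = 5), a log2 fold change of 0.59 (SE 0.43, 95% interval −0.36 to 1.53, adjusted p = 0.675 by limma), or 0.23 without PBS replicate 4 (adjusted p = 0.891 by limma). It was 0.07 without PBS replicates 4 and 5 together (adjusted p = 0.978 by limma) and 0.86 without PBS replicate 2 (adjusted p = 0.395 by limma). A change of 2-fold lies within the interval of either gene. Their values were shared with 8 to 37 other genes of the same tumor for *Gzmm* and with 11 to 37 for *Gzmk*, and next to the value of *Gzmk* the scale moved in steps of up to 1.31.

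The change was not of the same size in all 6 genes. To compare genes with each other, the log2 ratio of a pair was taken within each tumor, which removes the scale of the tumor, and its group means were compared by the exact two-sided permutation test over all groupings of the tumors, whose smallest p is 0.00216. The gene with the larger fold change was put on top, so that all differences are positive by construction, and p values were adjusted over the 15 pairs. Of these, 6 passed, and they set *Gzma* or *Gzmb* against *Ctsw*, *Gzmm* or *Gzmk*. No pair with *Prf1* passed, nor did any pair among *Ctsw*, *Gzmm* and *Gzmk*, nor *Gzma* against *Gzmb*.

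The pairs with *Ctsw* do not involve a gene of low signal. The log2 ratio *Gzma*/*Ctsw* ran from 0.99 over a median of 1.90 to 2.23 in hetIL-15 tumors, against 0.18, 1.16, 0.22, 0.56 and 0.28 in PBS replicates 1 to 5. Only hetIL-15 replicate 1 lay below the highest PBS tumor, replicate 2. The difference was 1.31 (95% interval 0.71 to 1.92, exact permutation p = 0.00649, adjusted p = 0.0195), so that the ratio was 2.49-fold higher with hetIL-15. The log2 ratio *Gzmb*/*Ctsw* ran from 1.34 over a median of 1.95 to 2.53 in hetIL-15 tumors, against 1.22, 0.87, 0.60, 0.85 and 1.14 in PBS replicates 1 to 5, and the groups did not overlap. Its difference was 1.01 (95% interval 0.47 to 1.55, exact permutation p = 0.00433, adjusted p = 0.0162). Without PBS replicates 4 and 5 together both pairs stood at an adjusted exact permutation p = 0.051, with differences of 1.27 and 1.05.

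Against the 2 genes of low signal, *Gzma* rose more than *Gzmk* by 1.88 (95% interval 0.95 to 2.81, adjusted exact permutation p = 0.0162) and more than *Gzmm* by 1.72 (95% interval 0.76 to 2.69, adjusted exact permutation p = 0.0162). For *Gzmb* the differences were 1.58 against *Gzmk* (95% interval 0.65 to 2.5, adjusted exact permutation p = 0.0216) and 1.42 against *Gzmm* (95% interval 0.67 to 2.17, adjusted exact permutation p = 0.0162). The call on *Gzmb*/*Gzmk* ended without hetIL-15 replicate 1, 2, 4 or 5, each at an adjusted exact permutation p = 0.0595. The part that the coarse low end of the scale has in these 4 differences was not tested.

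*Gzma* and *Gzmb* kept a nearly fixed ratio in treated tumors. The log2 ratio *Gzma*/*Gzmb* ran from −0.40 over a median of −0.12 to 0.10 in hetIL-15 tumors, against −1.04, 0.29, −0.38, −0.29 and −0.86 in PBS replicates 1 to 5. Its SD was 0.20 with hetIL-15 and 0.52 with PBS, and the difference of the means was 0.30 (95% interval −0.22 to 0.82, exact permutation p = 0.225, adjusted p = 0.27). The ratio *Gzmb*/*Prf1* behaved alike in its spread, with an SD of 0.19 in hetIL-15 tumors and 0.67 in PBS tumors, and a difference of 0.39 (95% interval −0.25 to 1.03, exact permutation p = 0.234, adjusted p = 0.27). The difference in spread between the groups was not tested. For *Gzma*/*Prf1* the difference was 0.69 (95% interval 0.06 to 1.32, exact permutation p = 0.0433, adjusted p = 0.0928), and it passed without PBS replicate 3, at 0.92 (adjusted exact permutation p = 0.0286). Without PBS replicate 4, whose *Gzmk* value was the lowest, *Prf1*/*Gzmk* (1.74, adjusted exact permutation p = 0.0143) and *Prf1*/*Gzmm* (1.38, adjusted exact permutation p = 0.0357) passed as well.

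**Figure D2:**
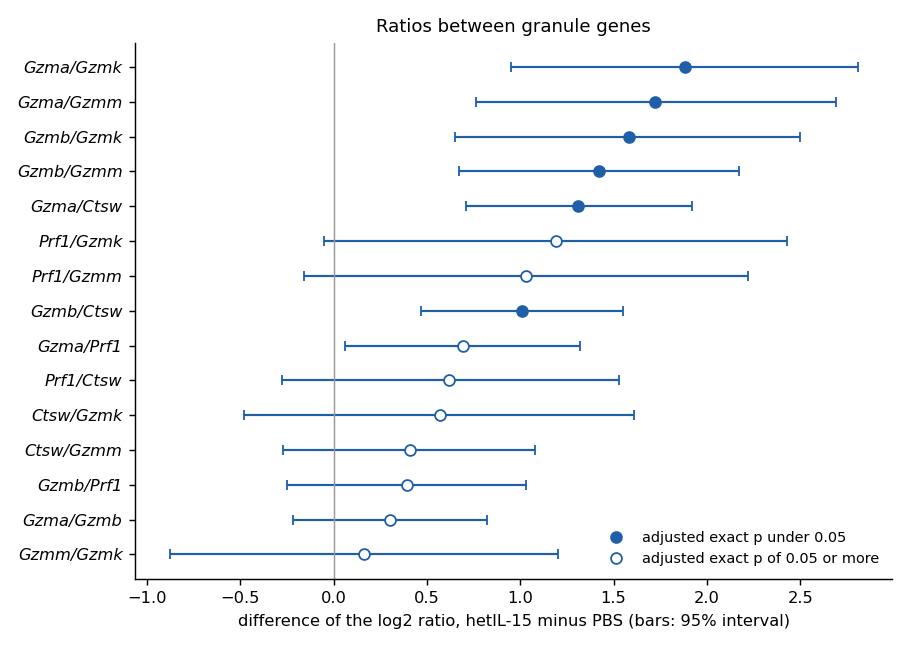
Difference of the within-tumor log2 ratio of 2 granule genes between 6 hetIL-15 tumors and 5 PBS tumors (x axis) for all 15 pairs, named on the y axis with the gene of larger change on top, with 95% intervals. Filled points, with an adjusted exact permutation p under 0.05, are the 6 pairs of *Gzma* or *Gzmb* with *Ctsw*, *Gzmm* or *Gzmk*, from 1.01 to 1.88.

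Genes that mark the cells which carry these granules were measured in the same tumors. The mean log2 value of 7 NK cell markers (*Ncr1*, *Klrb1c*, *Klrd1*, *Klrc1*, *Klrk1*, *Klra7* and *Klra4*) lay between 7.13 and 7.59 in hetIL-15 tumors, against 6.06 to 6.93 in PBS tumors, a difference of 0.88. Of the 7, *Ncr1* (log2 fold change 1.10, SE 0.19, adjusted p = 0.0162 by limma) and *Klrc1* (1.32, SE 0.25, adjusted p = 0.0227 by limma) rose, 0 fell and 5 did not pass. Among the 5, *Klra7* differed by 2.22 (SE 0.6, adjusted p = 0.139 by limma) and *Klrb1c*, at low signal, by 0.72 (SE 0.25, adjusted p = 0.291 by limma). *Klrd1* differed by 0.53 (SE 0.22, adjusted p = 0.369 by limma) and *Klrk1* by 0.27 (SE 0.15, adjusted p = 0.54 by limma). A higher mean was seen for 6 of the 7, so 0.88 is a mean over markers of unlike point values. The mean of 10 T cell markers, *Cd8a* and *Cd8b1* among them, lay between 4.92 and 5.36 in hetIL-15 tumors and between 4.89 and 5.49 in PBS tumors. Of the 10, 0 passed, near the 2.11% of all genes that passed in either direction. *Cd8a* differed by 0.35 on the log2 scale (95% interval −0.84 to 1.54, adjusted p = 0.876 by limma) and *Cd8b1* by −0.24 (95% interval −0.90 to 0.42, adjusted p = 0.837 by limma), both at low signal. *Ptprc*, the pan-leucocyte gene of CD45, differed by −0.01 (95% interval −0.47 to 0.44, adjusted p = 0.989 by limma).

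Each granule gene was then expressed relative to these markers, by subtracting the mean log2 value of the marker list within each tumor, with p values adjusted over the 12 comparisons. Relative to NK cell markers, *Gzma* was higher in hetIL-15 tumors by 1.59 (95% interval 0.94 to 2.24), or 3.01-fold, and *Gzmb* by 1.28 (95% interval 0.67 to 1.90), or 2.44-fold, each at the smallest exact permutation p = 0.00216 (adjusted p = 0.00519) and with every hetIL-15 tumor above every PBS tumor. The share of all genes that pass or separate the groups on this scale was not computed. *Prf1* was higher by 0.90 (95% interval 0.07 to 1.73, exact permutation p = 0.0498, adjusted p = 0.0853). The value for *Prf1* passed without *Klra7* among the markers (1.12, adjusted exact permutation p = 0.026) and without PBS replicate 4 (1.09, adjusted exact permutation p = 0.049). *Ctsw* differed by 0.27 relative to NK cell markers (95% interval −0.25 to 0.80, adjusted exact permutation p = 0.306), *Gzmm* by −0.13 (95% interval −0.90 to 0.63, adjusted exact permutation p = 0.686) and *Gzmk* by −0.29 (95% interval −1.23 to 0.65, adjusted exact permutation p = 0.593). These intervals leave room for a change in either direction.

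The mean of the T cell markers hardly differed between the groups (by 0.03 for 8 T cell markers and 0.06 for 2 CD8 markers). Values relative to them therefore stay close to those as measured and are not a separate result. On this scale the 4 genes that rose kept nearly their whole change. *Gzma* was higher by 2.43 (95% interval 1.67 to 3.18), *Gzmb* by 2.12 (95% interval 1.44 to 2.80) and *Ctsw* by 1.11 (95% interval 0.66 to 1.57), each at an adjusted exact permutation p = 0.00519, and *Prf1* by 1.74 (95% interval 0.81 to 2.66, adjusted exact permutation p = 0.013). *Gzmm* was higher by 0.71 (95% interval 0.01 to 1.40, adjusted exact permutation p = 0.0909) and *Gzmk* by 0.55 (95% interval −0.43 to 1.53, adjusted exact permutation p = 0.306). *Gzmm* passed without PBS replicate 3 (0.92, adjusted exact permutation p = 0.0245). The markers are themselves genes of the treated cells and measure neither cell number nor RNA per cell alone. Of them, 4 of 8 T cell, 2 of 2 CD8 and 1 of 7 NK cell markers were of low signal.

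**Figure D3:**
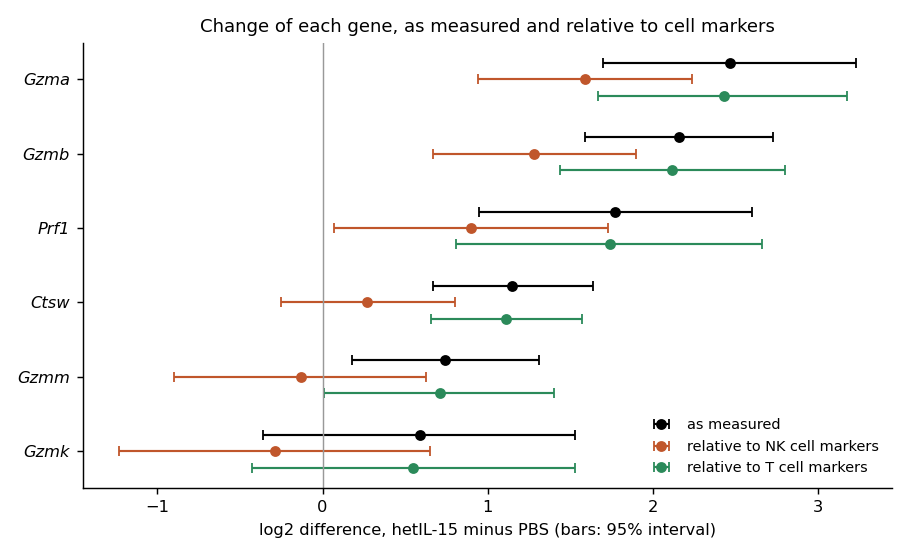
Difference between hetIL-15 and PBS tumors on the log2 scale (x axis, with 95% intervals) for each granule gene (y axis) as measured (black), relative to the mean of 7 NK cell markers (orange) and relative to the mean of 10 T cell markers (green). Relative to NK cell markers *Gzma* and *Gzmb* differ by 1.59 and 1.28, against 2.47 and 2.16 as measured, while *Ctsw*, *Gzmm* and *Gzmk* lie between −0.29 and 0.27.

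Within the treated group, the same tumors were high or low for several of the genes. hetIL-15 replicate 2 lay above the group mean for all 6 genes and replicate 4 for 5 of 6, whereas replicate 1 lay above it for 0 and replicate 6 for 1. In replicate 2 the deviations were 0.70 for *Gzma*, 0.58 for *Gzmb* and 0.64 for *Prf1*, and in replicate 1 they were −0.81, −0.61 and −0.72. Replicate 5 was split, at 0.32 for *Prf1* and −0.60 for *Ctsw*. Among PBS tumors, replicate 5 lay below the group mean for all 6 genes, replicates 1 and 2 lay above it for 5, and replicate 3 was low for *Prf1*, at −0.76, and high for *Gzmm*, at 0.86. On the first principal component of all genes, hetIL-15 replicates 2 and 4 were also highest, at 6.98 and 9.42, and PBS replicate 5 lowest, at −12.31. The other hetIL-15 tumors lay between 0.69 and 4.16, with replicate 1 at 3.44. Whether this order is particular to the granule genes was not tested.

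Correlations over the 6 hetIL-15 tumors were positive for 11 of 15 pairs, and 0 passed after adjustment over the pairs, whose smallest adjusted exact permutation p was 0.104. *Gzmb* and *Prf1* had a Pearson r of 0.95 (exact permutation p = 0.0139, adjusted p = 0.104) and a Spearman rho of 0.94 (exact permutation p = 0.0167, adjusted p = 0.125), and r was 0.99 without the 2 tumors farthest from the median of *Gzmb*. *Gzma* and *Gzmb* had an r of 0.94 (exact permutation p = 0.0139, adjusted p = 0.104) and a rho of 0.89 (exact permutation p = 0.0333, adjusted p = 0.167), with 0.76 without 2 tumors chosen in that way. *Gzma* and *Prf1* had an r of 0.87 (exact permutation p = 0.0389, adjusted p = 0.146) and a rho of 0.94 (exact permutation p = 0.0167, adjusted p = 0.125), with 0.64 without 2 tumors. *Gzma* and *Gzmk* had an r of 0.84 (exact permutation p = 0.0361, adjusted p = 0.146) and a rho of 0.71 (exact permutation p = 0.136, adjusted p = 0.405), with 0.98 without 2 tumors. *Ctsw* had an r of 0.64 with *Gzma*, 0.52 with *Gzmb* and 0.28 with *Prf1* (adjusted exact permutation p from 0.333 to 0.792). *Gzmm* had an r from −0.81 with *Ctsw* to 0.19 with *Prf1* (adjusted exact permutation p from 0.158 to 1.00).

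No correlation was computed in PBS tumors, since at least 6 tumors were asked for. There *Gzmb* and *Prf1* did not order the tumors alike: replicate 1 was highest for *Gzmb* and replicate 4 for *Prf1*, and replicate 5 was lowest for both. After subtracting the mean of each group, r over all 11 tumors was 0.79 for *Gzma* and *Gzmb*, 0.74 for *Gzma* and *Prf1* and 0.71 for *Gzmb* and *Prf1*. The same measure was 0.70 for *Gzma* and *Ctsw*, 0.57 for *Gzmb* and *Ctsw*, and 0.30 for *Prf1* and *Ctsw*.

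**Figure D4:**
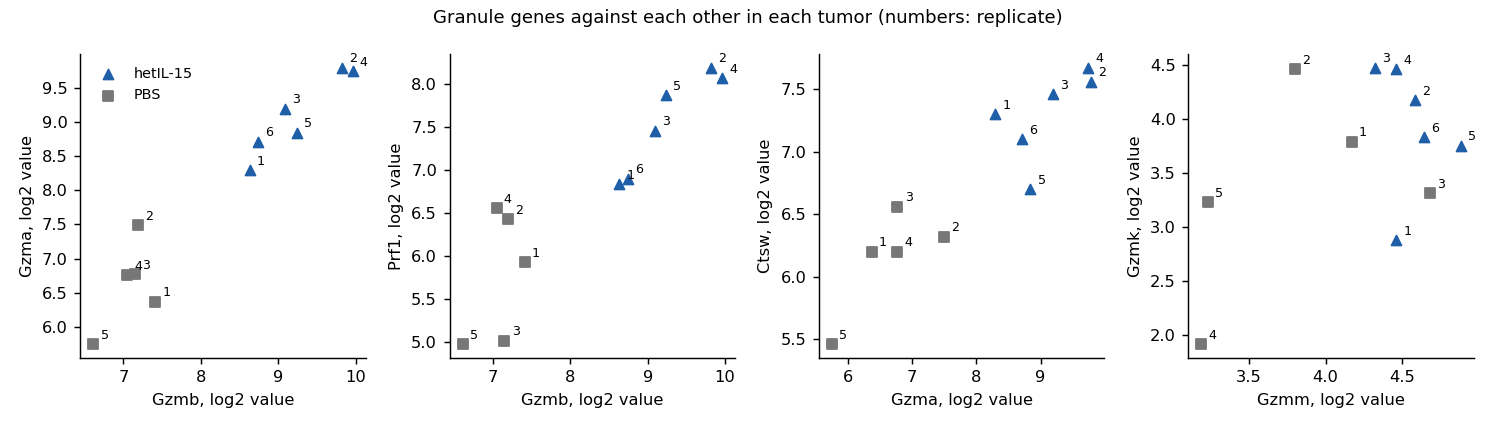
Normalized log2 values of pairs of granule genes in each of 6 hetIL-15 tumors (triangles) and 5 PBS tumors (squares), numbered by replicate. Among hetIL-15 tumors *Gzma* and *Prf1* follow *Gzmb* (r of 0.94 and 0.95), and r is 0.64 for *Ctsw* and *Gzma* and −0.23 for *Gzmk* and *Gzmm*; none passed after adjustment.

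Within the treated group the granule genes were also set against the NK cell markers, the T cell markers, *Ptprc* and the housekeeping genes, 24 relations of which 0 passed after adjustment (smallest adjusted exact permutation p = 0.20). With the NK cell markers r was 0.81 for *Gzma*, 0.72 for *Gzmb*, 0.73 for *Prf1* and 0.58 for *Ctsw* (adjusted exact permutation p from 0.278 to 0.50), and rho was 0.71, 0.60, 0.54 and 0.66. For *Gzmk* r was 0.83 and rho 0.83 (exact permutation p = 0.0278 and 0.0583, adjusted p = 0.222 and 0.594), and for *Gzmm* r was −0.43 and rho −0.64 (adjusted exact permutation p = 0.769 and 0.594). Without the 2 tumors farthest from the median of the markers, r was 0.50 for *Gzma*, 0.09 for *Gzmb*, −0.35 for *Prf1*, 0.85 for *Ctsw*, 0.97 for *Gzmk* and −1.0 for *Gzmm*, over a narrower range and 4 tumors. With 1 tumor left out, r ran from 0.62 to 0.99 for *Gzmb* and from 0.60 to 0.95 for *Prf1*. With the T cell markers it was 0.05 for *Gzma*, −0.05 for *Gzmb*, −0.13 for *Prf1* and 0.64 for *Ctsw* (adjusted exact permutation p from 0.423 to 0.968). The smallest p of the 24 was that of *Gzmm* with the T cell markers, with an r of −0.89 (exact permutation p = 0.00833, adjusted p = 0.20) and a rho of −0.99 (exact permutation p = 0.00556, adjusted p = 0.133), and r over all 11 tumors after subtracting the group means was −0.09. *Ctsw* had an r of −0.84 with the housekeeping genes (adjusted exact permutation p = 0.267), a relation that turned to 0.60 without the 2 farthest tumors; hetIL-15 replicate 5 was highest in housekeeping genes and lowest in *Ctsw*. Scaled to housekeeping genes, *Ctsw* had a log2 fold change of 1.24 (adjusted p = 0.0423 by limma), and the same 4 genes passed.

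The genes most like each granule gene across tumors were found by r over all 11 tumors after subtracting the mean of each group, among 749 other genes. This is a description with no test, and with so many genes over 11 tumors a high r arises easily. *Gzma* was closest to *Ifitm1*, an interferon-induced membrane protein (0.89), *H2-K1*, an MHC class I heavy chain (0.87), and *Il6ra*, the IL-6 receptor (0.87). *Gzmb* was closest to *Zbp1*, an interferon-induced nucleic acid sensor (0.90), *Tap1*, a peptide transporter for MHC class I (0.87), and *Spn*, the sialophorin CD43 of leucocytes (0.84). These 6 genes did not pass the comparison of the groups, and *Zbp1* and *Tap1* had log2 fold changes of 0.00 and 0.10. *Prf1* was closest to *Angpt1* (0.88), *Anxa1* (0.79) and the checkpoint receptor gene *Pdcd1* (0.79). *Ctsw* was closest to *Cfb* (0.81), *Tfeb* (0.81) and the selectin ligand *Selplg* (0.80). *Gzmk* was closest to *Ccl1* (0.86), the costimulatory receptor *Icos* (0.85) and *Inpp5d* (0.82), and *Gzmm* to *Ccl26* (0.82), *Il12rb2* (0.78) and *Nfatc4* (0.75).

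Other parts of the killing machinery were followed by lists of genes. Of all genes 2.11% passed in either direction, so a count of 0 in a short list lies near that share. Of 7 death ligands and cytokines of cytotoxic cells, *Xcl1*, the chemokine that draws cross-presenting dendritic cells (log2 fold change 1.95, SE 0.21, adjusted p = 0.00153 by limma), and *Fasl*, the ligand of Fas (1.16, SE 0.22, adjusted p = 0.0227 by limma), rose, 0 fell and 5 did not pass, with a median of 0.92. Among those that did not pass, *Lta* differed by 1.56 (SE 0.52, adjusted p = 0.264 by limma) and *Ifng* by 0.92 (SE 0.32, adjusted p = 0.291 by limma), both at low signal, and *Tnf* by −0.23 (SE 0.12, adjusted p = 0.484 by limma). Of 12 transcription factors of cytotoxic lymphocytes, 0 passed, with a median of −0.09. *Tbx21*, which encodes T-bet, differed by 0.94 (SE 0.41, adjusted p = 0.396 by limma) at low signal, and *Tcf7*, which encodes the memory factor TCF1, by −0.44 (SE 0.16, adjusted p = 0.316 by limma).

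Genes of IL-2 and IL-15 reception were measured in 11 cases. The counts in this paragraph stand against 2.11% of all genes that passed in either direction. *Cish*, a target of STAT5 (log2 fold change 1.29, SE 0.25, adjusted p = 0.0227 by limma), and *Il2rb*, the chain through which both cytokines signal (1.13, SE 0.25, adjusted p = 0.0469 by limma), rose, 0 fell and 9 did not pass, with a median of 0.22. Among the 9, *Socs1* differed by 0.37 (SE 0.10, adjusted p = 0.142 by limma), *Il2rg* by 0.27 (SE 0.10, adjusted p = 0.316 by limma) and *Il2*, at low signal, by −1.0 (SE 0.45, adjusted p = 0.416 by limma). Of 13 activating triggers of killing, *Ncr1* rose, 0 fell and 12 did not pass, with a median of 0.21. Among the 12, *Cd244*, a receptor of the SLAM family, differed by −0.30 (SE 0.15, adjusted p = 0.471 by limma), *Klrk1*, which encodes NKG2D, by 0.27 (SE 0.15, adjusted p = 0.54 by limma), and *Zap70*, a kinase of receptor signaling, by 0.37 at low signal (SE 0.25, adjusted p = 0.641 by limma). The granule membrane genes *Lamp1* and *Lamp2* differed on the log2 scale by 0.06 (SE 0.07, adjusted p = 0.796 by limma) and 0.17 (SE 0.09, adjusted p = 0.539 by limma). Both are found in lysosomes of all cells. Of 4 cathepsins other than *Ctsw*, 0 passed and all 4 had lower means, with a median of −0.15, among them *Ctsl* (−0.13, SE 0.09, adjusted p = 0.655 by limma) and the neutrophil protease *Ctsg* (−0.54, SE 0.37, adjusted p = 0.641 by limma). Inhibitors and activators of granule proteases were not analysed here.

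Cells other than lymphocytes can also hold granzymes or cathepsins. With 2.11% of all genes passing in either direction, a count of 0 in such short lists lies near that share. Of 5 mast cell and basophil markers 0 passed, and their mean log2 value lay between 4.62 and 5.55 in hetIL-15 tumors and between 4.01 and 5.39 in PBS tumors. Of 8 neutrophil markers 0 passed (4.13 to 4.84 with hetIL-15 and 4.39 to 4.88 with PBS). Of 6 macrophage and monocyte markers 0 passed (8.47 to 8.80 with hetIL-15 and 8.40 to 8.84 with PBS), and neither did any of 4 B cell markers (3.08 to 4.11 with hetIL-15 and 3.98 to 4.68 with PBS) or of 4 dendritic cell markers (4.41 to 5.16 with hetIL-15 and 4.51 to 5.01 with PBS). The part of these cells in the granule genes was not tested.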

How the data were processed

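The deposited table holds normalized log2 values of 758 genes in 11 tumors. The authors filtered low expressed genes from the nCounter counts, log transformed them and quantile normalized them between tumors (versions and genome build not given in the sources used here). The other table was used for probe class and accession only, because the names of its 11 count columns could not be tied to the labels, so the depth per tumor is unknown and no background was subtracted. Groups follow the treatment in the labels, which do not say more on the origin of the replicates, so p values measure the spread between these tumors. limma 3.58.1 (lmFit and eBayes, R 4.3.3) was fitted to all genes without covariates and adjusted by Benjamini-Hochberg. It was tested on simulated data. Log2 ratios were compared by exact permutation (Python 3.11.15, numpy 2.4.6), with 95% intervals from the pooled SD. The 6 genes, the lists and the tests were chosen with earlier results of these data known. Named genes are the 6, the 3 closest to each, and in each list those that passed and up to 3 with the smallest p. No pairing of the tumors by replicate number was seen in the values, which cannot exclude one. Alternatives were scaling, a filter on low signal, an intensity trend, a robust prior, array weights, a Mann-Whitney test, Bonferroni, the replicate number as a block and leaving out tumors or markers.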

Additional observations from a re-analysis of the deposited data

Results flagged for a closer look

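A total of 66 sets of values (each granule gene, ratio and value relative to markers, in each group) were searched for a tumor far from the rest by Dixon's test, which chance passes in about 1 of 20 sets, and 5 values stood out. hetIL-15 replicate 1 had a log2 ratio *Ctsw*/*Gzmk* of 4.42 (the other hetIL-15 tumors 2.95 to 3.39) and a value of *Gzmk* relative to T cell markers of −2.42 (the others −1.17 to −0.68). hetIL-15 replicate 5 had a value of *Ctsw* relative to NK cell markers of −0.61 (the others −0.13 to 0.15). PBS replicate 4 had a log2 ratio *Prf1*/*Gzmk* of 4.64 (the other PBS tumors 1.72 to 2.14). PBS replicate 5 had a value of *Gzma* relative to NK cell markers of −0.73 (the others 0.27 to 0.55). Of the 5, 3 involve *Gzmk*, whose values lie where the scale is coarse.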

How the results depend on the processing

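The log2 fold changes of the 6 granule genes kept their direction under every alternative run, except that the filter on low signal removed *Gzmk* and *Gzmm*. *Gzma* and *Gzmb* passed under each of them except the exact Mann-Whitney test per gene, by which 0 of 758 genes passed (smallest adjusted p = 0.173). Its smallest possible p with these group sizes, 0.00433, was reached by both, and a pass after adjustment needs many genes at that p. At an unadjusted p under 0.05, 69 genes passed by Mann-Whitney and 90 by limma. The number of granule genes that passed was 4, and all genes that passed numbered 16. With 1 tumor left out, 2 to 4 granule genes and 8 to 15 of all genes passed. Without PBS replicates 4 and 5 together it was 2 and 5, by Bonferroni 2 and 4, by Mann-Whitney 0 and 0, and with the replicate number as a block 3 and 5. The cause was not tested. Deviations of tumors of the same replicate number correlated between −0.05 and 0.13, with the best match at its own number for only 1 of 5 PBS tumors. No pairing was seen, but so few tumors cannot exclude one, and the labels do not say. Of the 15 ratios, 6 passed, 5 to 8 with 1 tumor left out, and 0 with the replicate block, tested by sign flips over 5 pairs, whose smallest p is 0.0625. Of the 12 values relative to markers 6 passed, and 6 to 7 did with 1 tumor left out, with no share over all genes computed beside them. Depth per tumor is not given here, and *Gzmk* and *Gzmm* are limited by low signal.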
